A study of Rattus norvegicus with 43 samples.

Results

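Livers of rats given Targretin were compared with livers of rats given 4HPR, on 7 of the 43 arrays of a study of liver, lung and mammary gland. The 7 arrays were taken by their labels, 3 for Targretin and 4 for 4HPR, with every probe set other than the array's controls. The Targretin group received 60 mg per kg body weight by gavage. The 4HPR group received 782 mg of 4-hydroxyphenylretinamide per kg of diet. All animals were female rats of the outbred Sprague-Dawley strain, and treatment lasted 7 days from 100 days of age. A diet-only liver group of 4 arrays is given beside them as the untreated level. A liver group of 4 arrays given 9-cis retinoic acid (9cRA, 100 mg per kg of diet) entered the fit for the estimate of the spread only. The labels name no gavage control, so agent, dose and route cannot be told apart in any difference below. The labels also leave unsaid whether each array stands for another animal, and the p-values then measure the spread between these samples, which may be technical.

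Both agents are synthetic retinoids used in cancer prevention research. Targretin (bexarotene) binds the retinoid X receptors, nuclear receptors that pair with the receptors for fatty acids (PPARs), oxysterols (LXRs), bile acids (FXR), thyroid hormone and retinoic acid to control transcription. The liver burns and builds fatty acids, makes bile acids, inactivates drugs and steroids and secretes most plasma proteins, and several of these pathways are classic targets of such receptor pairs. 4HPR (fenretinide) is an amide of retinoic acid that binds retinoid receptors weakly and also acts in ways that do not need them.

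Transcripts were measured as MAS5 signal, a linear intensity per probe set that the authors had scaled to a common mean on each array. The median signal was 353.1 to 369.7 on the Targretin arrays, against 319.6 to 339.8 on 4HPR arrays 1 to 3 and 266.8 on 4HPR array 4. That array correlated with its group at a mean of 0.9518, while the other 4HPR arrays did so at 0.9639 to 0.9658. The liver label held on all 7 arrays, since albumin (Alb) had signals of 72807 to 128076 with Targretin and 75081 to 158515 with 4HPR. On Targretin array 3 the summed signal of lung epithelium markers was 7498, against 3541 and 3888 on Targretin arrays 1 and 2 and 3042 to 3752 with 4HPR. The surfactant gene Sftpc made up much of it, with 2513 on Targretin array 3. Results are therefore also given without 4HPR array 4 and without Targretin array 3 where that matters.

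Differences are Targretin minus 4HPR of log2 values, after a pseudocount of 38.3 was added to each signal, with standard errors (SE) from limma, and they understate the change of dim transcripts. Means carry the SD over 3 Targretin, 4 4HPR or 4 diet arrays. A probe set passed when its p-value, adjusted by Benjamini-Hochberg over all 6071 tested in liver, was under 0.05. Of these, 253 (4.17%) were higher with Targretin and 226 (3.72%) were lower, or 479 (7.89%) in both directions, and 1358 had an unadjusted p under 0.05. The groups did not overlap for 462 of the 479, beside 19.2% of all genes tested at 1 probe set each. That count comes from the same values as the calls and adds no support to them. Of the 479, 216 passed in all 7 fits that left out 1 array. Without Targretin array 2 the counts were 143 higher and 137 lower, without Targretin array 1 they were 169 and 149, without Targretin array 3 they were 185 and 180, and without 4HPR array 4 they were 233 and 260. The large differences lay more on the higher side, with 50 probe sets over 4-fold higher and 19 over 4-fold lower. The median over all probe sets was 0.078. In bulk tissue, fewer cells of a type and less RNA per cell cannot be told apart.

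**Figure D1:**
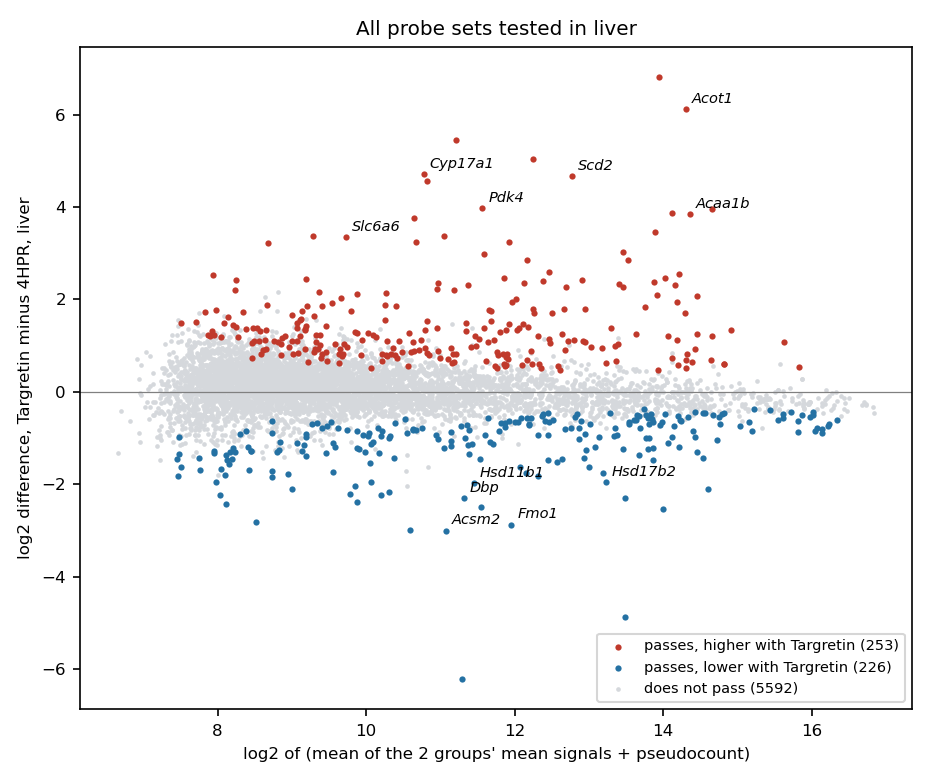
Each point is a probe set tested in liver; the x axis is log2 of the mean of both groups' mean signals plus the pseudocount and the y axis is the log2 difference, Targretin minus 4HPR. The 253 red points passed as higher with Targretin and the 226 blue points as lower; 50 of the red and 19 of the blue points lie beyond 4-fold.

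The passing probe sets covered 314 genes, 163 higher and 151 lower, and 94 passing probe sets had no single gene symbol. Among those were the widest gaps of all. A probe set annotated to both Acot1 and Acot2 had signals of 23746, 33948 and 35492 with Targretin, against 68.9, 112, 631 and 480 with 4HPR, a difference of 6.81 ± 0.57 (adjusted p = 7.5e-07). Another, which has no gene in the annotation used, had 32.2, 25.5 and 25.9 with Targretin, against 4526, 5452, 5087 and 4484 with 4HPR, a difference of -6.21 ± 1.16 (adjusted p = 0.0023). Its diet arrays spread from 632 to 7388, so the transcript was present without treatment and was near the bottom of the scale on every Targretin array.

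With 1 probe set per gene, 3559 genes were tested, of which 142 (3.99%) were higher with Targretin, 112 (3.15%) were lower and 254 (7.14%) passed in either direction. The counts of gene lists below are to be read against these shares. The Targretin and 4HPR arrays did not overlap for 682 genes (19.2%), 409 of them higher with Targretin (11.5%) and 273 lower (7.67%). The lists are ordered by pathway, and a median is that of the log2 differences of the list's tested genes, beside 0.079 over all genes.

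Peroxisomes shorten very long and branched fatty acids and are the compartment that PPAR ligands expand in rodent liver. Of 28 peroxisomal genes tested, 11 were higher and 1 lower with Targretin, and 16 did not pass, with a median of 0.32. The higher count was 9 to 11 in the fits without 1 array. Acaa1b, the inducible thiolase of the last step, had signals of 30703, 40727 and 45864 with Targretin, against 1987, 1696, 3216 and 4489 with 4HPR. The lowest Targretin array lay far above the highest 4HPR array, the difference was 3.85 ± 0.31 (adjusted p = 5.4e-07), and diet livers averaged 1816 ± 301. Ehhadh, the bifunctional enzyme of the middle steps, had 20939, 29740 and 33674 with Targretin, against 4180, 3746, 5084 and 7677 with 4HPR (2.46 ± 0.24, adjusted p = 2.9e-06). Pex11a, which drives division of the organelle, had 1433, 3961 and 6186 with Targretin, against 338, 228, 214 and 380 with 4HPR (3.37 ± 0.40, adjusted p = 2.6e-05), and both of its probe sets passed. Its Targretin arrays differed among themselves by more than the 4HPR arrays did, yet no value overlapped.

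Further members passed with smaller gaps. The differences were 1.70 ± 0.26 for Ech1, a dienoyl-CoA isomerase, 1.46 ± 0.26 for Hacl1, a lyase of branched-chain oxidation, 1.38 ± 0.24 for Crot, which passes shortened acyl groups out as carnitine esters, and 1.05 ± 0.19 for Decr2, a dienoyl-CoA reductase. Acox2, the oxidase for branched chains and bile acid precursors, differed by 1.29 ± 0.30, and lost its call without Targretin array 1 (adjusted p = 0.062). Catalase (Cat), the peroxide-removing enzyme, is a peroxisomal protein whose level did not pass, with 11846 ± 2733 in Targretin livers and 15874 ± 3631 in 4HPR livers (adjusted p = 0.44). Idh1, a cytosolic and peroxisomal source of NADPH, was the member that was lower, by -0.51 ± 0.14 (adjusted p = 0.029), and its call was lost in 5 of the 7 fits without 1 array, those without 4HPR array 1, 2 or 3 or Targretin array 2 or 3 (adjusted p up to 0.14). Its second probe set gave -0.050.

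Mitochondria oxidise the bulk of fatty acids. Of 23 genes of mitochondrial β-oxidation and ketone bodies, 12 were higher and 0 lower with Targretin, and 11 did not pass, with a median of 0.89. In the fits without 1 array 9 to 14 were higher. Cpt2, the carnitine palmitoyltransferase of the inner membrane, had 10065, 12811 and 9844 with Targretin, against 2025, 2045, 2040 and 2760 with 4HPR. Its difference was 2.28 ± 0.21 (adjusted p = 1.8e-06), and diet livers, at 3416 ± 489, lay above the 4HPR livers. Eci1, an isomerase that lets unsaturated chains enter the cycle, had 17556, 24672 and 32778 with Targretin, against 5594, 4154, 6124 and 7245 with 4HPR (2.09 ± 0.22, adjusted p = 6.8e-06), and 2 of its 3 probe sets passed. The medium-chain dehydrogenase Acadm averaged 17969 ± 1625 in Targretin livers and 7476 ± 455 in 4HPR livers (1.26 ± 0.13, adjusted p = 5.0e-06), and diet livers lay between at 11737 ± 1437. The thiolase Acaa2 differed by 1.25 ± 0.17, and both subunits of the trifunctional protein passed, Hadhb at 1.22 ± 0.14 and Hadha at 0.94 ± 0.16. Acat1, an acetoacetyl-CoA thiolase of ketone body metabolism, passed on 3 of 3 probe sets (1.13 ± 0.15 on the brightest).

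Acyl-CoA thioesterases, which release free fatty acids from CoA, included the widest gap of any named gene. Acot1, the cytosolic enzyme, had 28756, 46478 and 43435 with Targretin, against 178, 206, 988 and 1754 with 4HPR (6.12 ± 0.63, adjusted p = 5.0e-06). The mean in Targretin livers was 50.6 times that in 4HPR livers, and the 4HPR arrays, which were spread widely among themselves, all lay above the diet mean of 75.7 ± 31.9. Acot2, the mitochondrial enzyme, had 1021, 1685 and 6230 with Targretin, against 225, 73.8, 269 and 46.0 with 4HPR (3.76 ± 0.54, adjusted p = 2.0e-04). The Acot family members are close in sequence, so the share of each in these probe sets is uncertain.

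Among 23 genes of fatty acid uptake, activation, transfer and lipid droplets that passed the filter on low values, of 27 on the array, 8 were higher and 0 lower, with a median of 0.60. The count of 8 was 6 without Targretin array 2 or 3. Plin2, a coat protein of lipid droplets, had 17082, 27979 and 30605 with Targretin, against 4309, 6575, 3948 and 4285 with 4HPR (2.38 ± 0.23, adjusted p = 2.9e-06). Cidea, which enlarges droplets, averaged 1298 ± 294 in Targretin livers and 509 ± 33.6 in 4HPR livers (1.27 ± 0.23, adjusted p = 0.0017). Fabp7, a fatty acid binding protein best known from brain, averaged 2095 ± 615 with Targretin and 547 ± 129 with 4HPR (1.85 ± 0.29, adjusted p = 4.4e-04), and here diet livers, at 1557 ± 430, lay near the Targretin level. Dbi, the acyl-CoA binding protein, differed by 0.68 ± 0.13 (adjusted p = 0.0030). The liver fatty acid binding protein Fabp1 is among the brightest probe sets, at 68373 ± 10830 with Targretin and 47408 ± 8083 with 4HPR (0.53 ± 0.14, adjusted p = 0.027), and lost its call without 4HPR array 2 or 4 or Targretin array 2 or 3 (adjusted p up to 0.13). Slc27a2, an acyl-CoA synthetase that imports fatty acids, differed by 0.60 ± 0.13 (adjusted p = 0.0088), with an adjusted p of 0.057 without Targretin array 3. Of the Cyp4 enzymes, which hydroxylate the far end of fatty acids, Cyp4a1 averaged 30735 ± 4241 with Targretin and 9507 ± 2430 with 4HPR (1.71 ± 0.19, adjusted p = 1.1e-05) and passed on 3 of 3 probe sets. The other 7 Cyp4 genes tested held 1 that was lower, Cyp4f1 (-0.58 ± 0.14, adjusted p = 0.013), whose call was lost without Targretin array 2 or 3 (adjusted p up to 0.070).

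Across the lipid lists 41 genes were higher, and 36 of them had a promoter window (250 bases before to 50 after the gene start) in RefSeq sequence of the build GRCr8. The 41 were chosen for being higher, so their shared direction is no result. The windows were searched for the letters AGGTCA, the hexamer that receptor pairs with the retinoid X receptor bind, on both strands. It was present in 8 of the 36 (22.2%) and in 5415 of all 33469 windows (16.2%). A direct repeat of AGGTCA with 1 base between its copies was in 0 of the 36 and in 18 of all windows (0.0538%). The same repeat of AGGNCA, where N is any base, was in 1 of the 36, Fabp1, and in 139 of all windows (0.415%), which include the windows with the stricter repeat. A direct repeat of AGGTCA with 4 bases between its copies was in 0 of the 36 and in 2 of all windows. A match is a description of letters and not a bound site. The windows of Fabp1 (chr4:104749090-104749389, plus strand), Slc27a2 (chr3:134257851-134258150, plus strand), Eci1 (chr10:13961000-13961299, plus strand) and Hadhb (chr6:31907451-31907750, minus strand) are shown 5′ to 3′. They are examples picked by hand from the 8 with a match, and the others are Acacb, Acadvl, Amacr and Fabp7. Capitals mark the match, which reads on the opposite strand as the hexamer or, in Fabp1, as the looser repeat, and which starts 77, 76 and 94 bases before the gene start in Fabp1, Slc27a2 and Eci1 and after it in Hadhb.
Fabp1: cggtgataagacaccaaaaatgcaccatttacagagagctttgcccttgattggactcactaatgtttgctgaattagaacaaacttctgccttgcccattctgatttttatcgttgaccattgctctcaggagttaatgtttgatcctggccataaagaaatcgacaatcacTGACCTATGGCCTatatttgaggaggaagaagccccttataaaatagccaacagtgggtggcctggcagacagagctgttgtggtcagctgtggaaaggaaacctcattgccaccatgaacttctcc
Slc27a2: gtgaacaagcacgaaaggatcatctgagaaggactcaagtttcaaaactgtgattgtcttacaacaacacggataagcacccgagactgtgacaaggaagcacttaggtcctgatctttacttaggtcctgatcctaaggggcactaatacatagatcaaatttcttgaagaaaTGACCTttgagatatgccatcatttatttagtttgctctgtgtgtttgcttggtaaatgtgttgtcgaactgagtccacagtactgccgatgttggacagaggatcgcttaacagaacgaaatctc
Eci1: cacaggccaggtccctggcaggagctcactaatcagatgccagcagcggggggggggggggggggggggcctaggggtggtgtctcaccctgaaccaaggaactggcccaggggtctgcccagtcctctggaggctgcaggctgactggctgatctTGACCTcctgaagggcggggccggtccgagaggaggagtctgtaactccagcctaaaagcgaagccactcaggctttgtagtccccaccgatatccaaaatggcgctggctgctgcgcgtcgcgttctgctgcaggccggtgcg
Hadhb: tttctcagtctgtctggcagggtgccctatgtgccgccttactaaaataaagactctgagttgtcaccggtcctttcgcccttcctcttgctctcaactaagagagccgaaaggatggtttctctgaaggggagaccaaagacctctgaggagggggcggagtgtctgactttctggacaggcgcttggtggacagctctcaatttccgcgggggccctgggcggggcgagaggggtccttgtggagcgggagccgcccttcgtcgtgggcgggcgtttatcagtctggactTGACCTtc

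Transcripts of fatty acid synthesis, the opposite pathway, were compared next. Of 15 lipogenesis genes tested, 9 were higher and 0 lower, and 6 did not pass, with a median of 1.21. The count of 9 was 6 without Targretin array 1 and 7 without 4HPR array 2 or 3 or Targretin array 2. Fasn, the synthase, had 46056, 23962 and 26321 with Targretin, against 7572, 6484, 7622 and 1985 with 4HPR (2.55 ± 0.35, adjusted p = 1.4e-04). The low value is 4HPR array 4, without which this probe set gave 2.09. The second Fasn probe set gave 1.95 (adjusted p = 2.9e-06), and there 4HPR array 4 held the highest 4HPR value, 9055. Acacb, the carboxylase whose product restrains mitochondrial import of fatty acids, had 1233, 1402 and 1077 with Targretin, against 444, 339, 362 and 90.2 with 4HPR (2.03 ± 0.40, adjusted p = 0.0037). Me1, a malic enzyme that supplies NADPH, had 12095, 5375 and 5358 with Targretin, against 2159, 1681, 2215 and 2509 with 4HPR, and 4 of its 5 probe sets passed (1.71 ± 0.25 on the brightest, adjusted p = 2.5e-04).

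The desaturases, which put double bonds into fatty acids, differed in how far the agents were apart. Scd2 had 16873, 11910 and 11302 with Targretin, against 414, 356, 550 and 658 with 4HPR (4.66 ± 0.39, adjusted p = 7.5e-07), and 5 of 5 probe sets passed. Its diet arrays averaged 1960 ± 1259, above every 4HPR array and below every Targretin array. Scd had 68226, 66590 and 68796 with Targretin, against 26991, 36257, 23380 and 45946 with 4HPR and 10097 ± 4438 in diet livers (1.08 ± 0.30, adjusted p = 0.032). The Scd call was lost without 4HPR array 1 or 3 or any of the 3 Targretin arrays (adjusted p up to 0.091), and the genes are close in sequence, so cross-hybridisation between them was not tested. Elovl5, an elongase of unsaturated chains, averaged 24040 ± 3963 with Targretin and 10296 ± 925 with 4HPR (1.21 ± 0.17, adjusted p = 1.4e-04).

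Pnpla3, a lipid droplet hydrolase regulated with lipogenesis, had 9915, 4034 and 2515 with Targretin, against 486, 407, 703 and 660 with 4HPR (2.99 ± 0.48, adjusted p = 5.1e-04). Srebf1, the transcription factor of lipogenesis, had 9718, 2661 and 2653 with Targretin, against 2394, 1069, 1652 and 871 with 4HPR (1.54 ± 0.40, adjusted p = 0.026). Targretin array 1 held the highest value of Fasn, Me1, Pnpla3 and Srebf1 alike. Without it Srebf1 differed by 0.92, and the Srebf1 call was lost without that array, 4HPR array 2 or 4HPR array 4 (adjusted p up to 0.15).

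**Figure D2:**
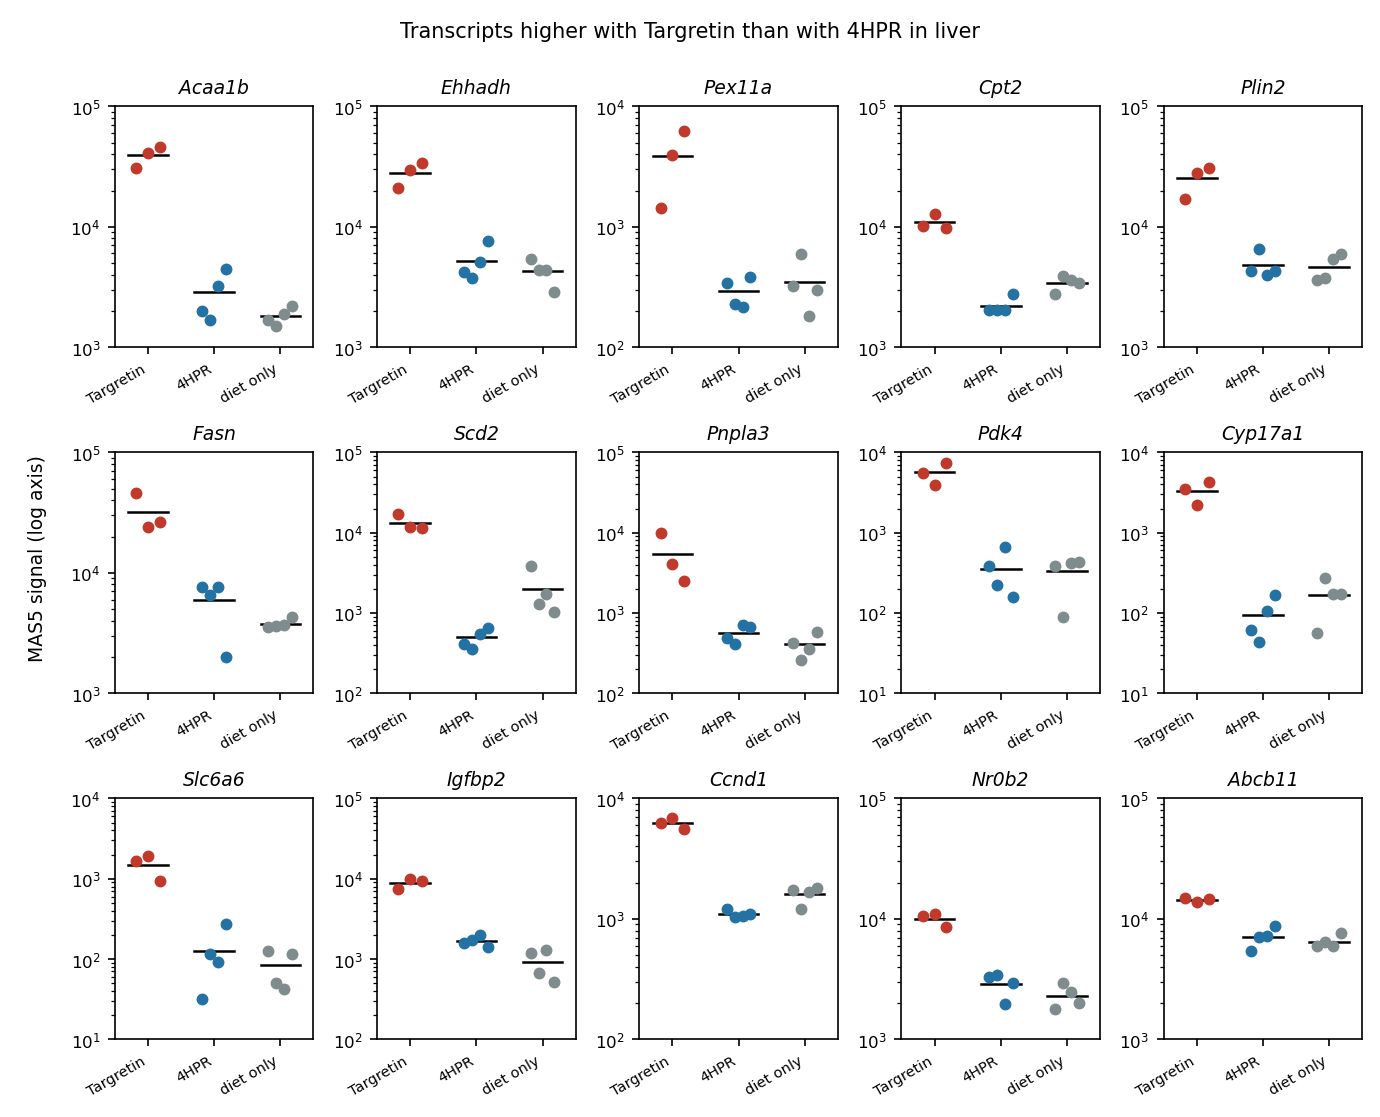
MAS5 signal (log axis) of 15 transcripts on each liver array, with Targretin at the left, 4HPR in the middle and diet only at the right; points are arrays and bars are group means. In every panel all 3 Targretin points lie above all 4 4HPR points, from Abcb11 at 14362 with Targretin against 7079 with 4HPR to Cyp17a1 at 3330 against 94.0. For genes named as the 15 widest differences, such a gap was a condition of the choice.

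Genes of pyruvate use came next. Pdk4, a kinase that shuts down pyruvate dehydrogenase, had 5548, 3982 and 7377 with Targretin, against 388, 221, 663 and 156 with 4HPR (3.97 ± 0.60, adjusted p = 3.5e-04), and the 4HPR values straddled the diet mean of 329 ± 162. Pdk2, a second kinase of the complex, averaged 11673 ± 1303 with Targretin and 7521 ± 728 with 4HPR, and both lay above the diet mean of 4443 ± 153 (0.63 ± 0.14, adjusted p = 0.0071). The opposing phosphatase Pdp2 was higher as well (0.80 ± 0.18, adjusted p = 0.011), though with an adjusted p of 0.072 without Targretin array 2. Of 23 genes of pyruvate oxidation and the citric acid cycle, 5 were higher, 1 lower (Idh1, above), and 17 did not pass, with a median of 0.22. Of 30 genes of glycolysis, gluconeogenesis and glycogen, 2 were higher and 2 lower, and 26 did not pass. The higher count was 0 without Targretin array 1 and 1 without Targretin array 2, and the lower count was 0 or 1 without any of the 7 arrays. The higher ones included Gpd1, which makes the glycerol phosphate of triglycerides, with 8470, 5789 and 6857 with Targretin, against 2537, 1938, 2543 and 222 with 4HPR (2.36 ± 0.55, adjusted p = 0.012). Without 4HPR array 4, the lowest value, Gpd1 differed by 1.57, and its call was lost without Targretin array 1 (adjusted p = 0.055).

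Genes of bile acid handling went in both directions. Cyp7a1, the rate-limiting enzyme of bile acid synthesis, had 6628, 3749 and 2586 with Targretin, against 13265, 8234, 18543 and 17325 with 4HPR (-1.76 ± 0.49, adjusted p = 0.036). Diet livers, at 5176 ± 1514, lay near the Targretin livers, and the call was lost without 4HPR array 1, 3 or 4 or Targretin array 2 or 3 (adjusted p up to 0.14). Nr0b2 (SHP), a repressor of Cyp7a1 transcription, had 10468, 11056 and 8483 with Targretin, against 3278, 3436, 1952 and 2936 with 4HPR, and 3 of 3 probe sets passed (1.80 ± 0.22 on the brightest, adjusted p = 3.8e-05). Abcb11, the bile salt export pump, had 14822, 13730 and 14534 with Targretin, against 5370, 7040, 7175 and 8733 with 4HPR (1.04 ± 0.16, adjusted p = 3.1e-04).

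Nr1h4 (FXR), the bile acid receptor, was lower, with 476, 539 and 630 with Targretin, against 1205, 1637, 1394 and 1344 with 4HPR (-1.29 ± 0.21, adjusted p = 5.6e-04). Abcb4, the phospholipid exporter of bile, averaged 2048 ± 521 with Targretin and 1069 ± 158 with 4HPR (0.89 ± 0.21, adjusted p = 0.012), and diet livers had 2177 ± 187, so the 4HPR livers stood apart from both. The call for Abcb4 was lost without Targretin array 2 or 3 (adjusted p up to 0.071). In all, 3 of 21 genes of this list were higher and 2 lower, and 16 did not pass, with a median of -0.015 (0.066 with quantile normalization). Of 17 genes of cholesterol synthesis and uptake, 1 passed, Msmo1, a demethylating oxidase of the pathway, with 6681 ± 573 in Targretin livers and 15779 ± 2263 in 4HPR livers (-1.23 ± 0.21, adjusted p = 8.8e-04). The lower count was 2 without 4HPR array 4 or Targretin array 2, and 1 gene was higher without Targretin array 3. Of 14 genes of apolipoproteins and lipoprotein handling, 1 passed, Apoh, at -0.38 ± 0.11 (adjusted p = 0.034), and it lost its call without 4HPR array 2 or 3 or Targretin array 1 or 2 (adjusted p up to 0.16). This list depended on the scaling, since quantile normalization gave 3 higher and 0 lower and a median of 0.064, against -0.12 on the deposited scale.

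Genes that handle retinoids themselves were next compared. Of 10 tested, of 14 on the array, 2 were higher and 1 lower, and 7 did not pass. Aldh1a1, which oxidises retinal to retinoic acid, had 9967, 12620 and 9351 with Targretin, against 3763, 4962, 4456 and 7362 with 4HPR (1.08 ± 0.22, adjusted p = 0.0040). Adh4, an alcohol dehydrogenase that accepts retinol, differed by 1.13 ± 0.26 (adjusted p = 0.010), with an adjusted p of 0.066 without Targretin array 3. Rdh7, a retinol dehydrogenase, had 611, 870 and 590 with Targretin, against 1871, 1860, 1780 and 2058 with 4HPR (-1.42 ± 0.18, adjusted p = 3.9e-05), and diet livers, at 1560 ± 140, were near the 4HPR livers. Cyp26b1, which degrades retinoic acid, had 499, 776 and 340 with Targretin, against 811, 470, 559 and 502 with 4HPR, and 78.0 ± 47.0 in diet livers. The groups of the agents overlapped, and the difference of -0.15 had a 95% interval of -1.10 to 0.79 (adjusted p = 0.88).

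The retinoid receptors showed 1 call among 5. Rxrg averaged 4496 ± 604 with Targretin and 2972 ± 439 with 4HPR on its brightest probe set (0.59 ± 0.16, adjusted p = 0.033). That call was lost without 4HPR array 1, 3 or 4 or Targretin array 1 or 2 (adjusted p up to 0.14). A dimmer Rxrg probe set gave 1.85 ± 0.38 (adjusted p = 0.0053) and passed in all 7 fits without 1 array. Another gave 0.36 (adjusted p = 0.64). For Rxra the difference was 0.23 (95% interval -0.36 to 0.82), and it was -0.070 without 4HPR array 4. For Rxrb it was -0.24 (-0.64 to 0.16), for Rara 0.45 (-0.048 to 0.95) and for Rarb 0.45 (-0.80 to 1.70), and none of these passed. Of 26 nuclear receptors and coregulators, 2 were higher (Rxrg and Nr0b2), 1 was lower (Nr1h4) and 23 did not pass.

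Enzymes of drug metabolism had calls in both directions, and most had none. The widest gap was that of Cyp2b2, a P450 that phenobarbital induces in rat liver, with 20970, 35822 and 41044 with Targretin, against 584, 3761, 1497 and 5617 with 4HPR (3.88 ± 0.60, adjusted p = 3.8e-04). Both of its probe sets passed, and the near-identical members of the Cyp2b family may share this signal. Cyp1a2, which oxidises caffeine and aromatic amines, had 15519, 8964 and 10834 with Targretin, against 25133, 24055, 30035 and 25835 with 4HPR (-1.19 ± 0.16, adjusted p = 9.3e-05), with 3 of 3 probe sets passing and diet livers at 26905 ± 1850. The Cyp3a enzymes, which oxidise steroids and many drugs, were split in their relation to diet. Cyp3a9 averaged 12923 ± 1879 with Targretin and 31855 ± 6945 with 4HPR (-1.29 ± 0.18, adjusted p = 1.4e-04), with diet at 14739 ± 2589, near Targretin. Cyp3a18 averaged 315 ± 100 with Targretin and 1119 ± 226 with 4HPR (-1.73 ± 0.22, adjusted p = 6.5e-05), with diet at 1264 ± 154, near 4HPR. Among 20 P450s and reductases outside the Cyp2c family, 3 were higher and 4 lower, and 13 did not pass, with a median of -0.18. None of the 7 Cyp2c enzymes passed in the limma fit, 2 had an unadjusted p under 0.05, and their median was -0.27. With quantile normalization the medians of these lists were -0.029 and -0.004, and 1 Cyp2c gene was higher, while without 4HPR array 4 there was 1 lower.

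Of 20 flavin monooxygenases, hydrolases and aldehyde and quinone enzymes, 5 were lower and 0 were higher, with a median of -0.22. Fmo1, which adds oxygen to nitrogen and sulfur of drugs, had 777, 860 and 1127 with Targretin, against 6447, 7062, 5799 and 8472 with 4HPR (-2.87 ± 0.20, adjusted p = 1.5e-07). Diet livers averaged 3369 ± 814, below every 4HPR array and above every Targretin array. Ces1e, a carboxylesterase, differed by -0.96 ± 0.18 (adjusted p = 0.0023). Nqo1, a quinone reductase, differed by -1.12 ± 0.25 (adjusted p = 0.010), with an adjusted p of 0.066 without Targretin array 3.

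Of 17 genes of glucuronidation and sulfation, 3 were lower and 0 higher, with a median of -0.27. They included Ugdh, which makes the UDP-glucuronic acid that glucuronidation consumes, at 3812 ± 444 with Targretin and 7309 ± 854 with 4HPR (-0.93 ± 0.15, adjusted p = 5.1e-04), with 1 of 2 probe sets passing and the other at 0.92 (adjusted p = 0.16). The count of 3 was 1 without Targretin array 2 or 3. Of 24 glutathione genes, 1 was higher and 2 lower, and 21 did not pass. The higher call was lost without any array other than 4HPR array 2, and the lower count was 4 without 4HPR array 4 and 1 without 4HPR array 1, 2 or 3 or Targretin array 1 or 2. The omega-class transferase Gsto1 was one of those that were lower, at 4856 ± 503 with Targretin and 10055 ± 2637 with 4HPR (-1.02 ± 0.16, adjusted p = 6.1e-04).

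Enzymes that make and inactivate steroids held some of the widest gaps. Cyp17a1, the hydroxylase and lyase of androgen synthesis, had 3513, 2239 and 4238 with Targretin, against 60.6, 43.5, 105 and 167 with 4HPR (4.71 ± 0.41, adjusted p = 8.6e-07). Diet livers averaged 169 ± 89.3, so the transcript was dim without Targretin. It probably passed the filter on low values only through the Targretin arrays, and the size of its difference is uncertain. Hsd11b1, which regenerates active glucocorticoid, had 1239, 837 and 1149 with Targretin, against 4834, 3962, 2946 and 6037 with 4HPR and 1737 ± 832 in diet livers (-1.98 ± 0.31, adjusted p = 4.7e-04). Hsd17b2, which inactivates oestradiol and testosterone, had 3922, 3304 and 4427 with Targretin, against 19472, 13788, 14508 and 13157 with 4HPR and 14432 ± 1802 in diet livers (-1.95 ± 0.23, adjusted p = 2.4e-05). Of 17 steroid enzymes, 2 were higher and 2 lower, and 13 did not pass, while 1 was higher without 4HPR array 1, 2 or 3 or Targretin array 2 or 3.

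**Figure D3:**
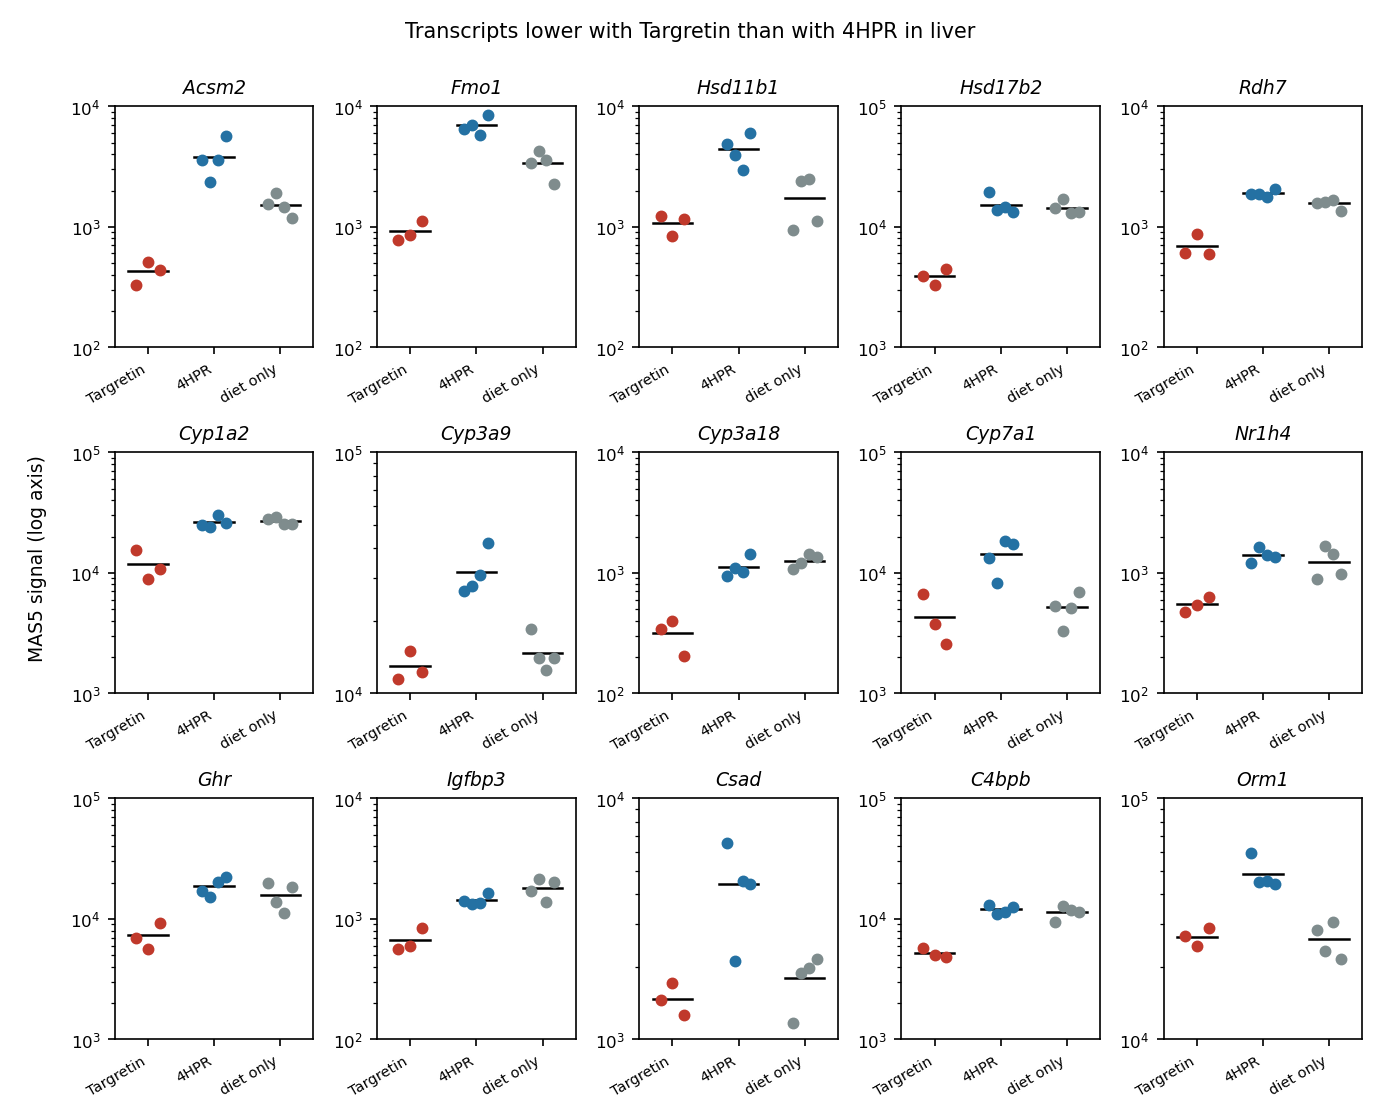
MAS5 signal (log axis) of 15 transcripts on each liver array, with Targretin at the left, 4HPR in the middle and diet only at the right; points are arrays and bars are group means. In every panel all 3 Targretin points lie below all 4 4HPR points. For genes named as the 15 widest differences, such a gap was a condition of the choice. The 4HPR mean is near the diet mean for Hsd17b2 (15231 with 4HPR, 14432 with diet). For Cyp3a9 the Targretin mean of 12923 is near the diet mean of 14739.

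Among hormone axes, the growth hormone and insulin-like growth factor (IGF) genes went both ways. Igfbp2, an IGF binding protein, had 7381, 9908 and 9484 with Targretin, against 1560, 1719, 2003 and 1422 with 4HPR, and 3 of 3 probe sets passed (2.39 ± 0.25 on the brightest, adjusted p = 5.5e-06). Igfbp3, the main IGF carrier of plasma, had 562, 590 and 847 with Targretin, against 1416, 1330, 1359 and 1627 with 4HPR, and both probe sets passed (-1.08 ± 0.20, adjusted p = 0.0023). The growth hormone receptor Ghr had 6955, 5672 and 9248 with Targretin, against 17176, 15184, 20285 and 22412 with 4HPR (-1.37 ± 0.23, adjusted p = 8.0e-04), but 1 of its 3 probe sets passed and the others gave -0.58 and -0.39. Igf1r, the IGF receptor, differed by 1.12 ± 0.25 (adjusted p = 0.010), with an adjusted p of 0.078 without Targretin array 2, while its second probe set gave -0.28 (adjusted p = 0.75). Over the list, 2 of 22 genes were higher and 2 lower (4 without 4HPR array 4), and 18 did not pass. Dio1, the deiodinase that activates thyroid hormone in liver, was the 1 of 5 thyroid genes that passed. It had 1245, 910 and 1575 with Targretin, against 2598, 3118, 2272 and 3650 with 4HPR (-1.21 ± 0.20, adjusted p = 8.8e-04). Its second probe set gave -1.04 (adjusted p = 0.17), with overlapping groups.

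Taurine genes also differed in opposite directions. Of 7 genes of taurine and sulfur amino acid metabolism, 1 was higher and 2 lower, and 4 did not pass, with a median of -0.19. Slc6a6, the taurine importer, had 1642, 1894 and 925 with Targretin, against 31.7, 114, 91.0 and 271 with 4HPR and 83.3 ± 43.5 in diet livers (3.35 ± 0.58, adjusted p = 0.0012). Csad, the decarboxylase of taurine synthesis, had 1452, 1712 and 1260 with Targretin, against 6532, 2115, 4533 and 4394 with 4HPR (-1.45 ± 0.30, adjusted p = 0.0048), and its second probe set gave -2.50 (adjusted p = 1.3e-05). The Csad level of diet livers, 1794 ± 428, was near that of the Targretin livers. Cdo1, which oxidises cysteine toward taurine, differed by -0.69 ± 0.17 (adjusted p = 0.018). It lost its call without 4HPR array 2 or Targretin array 2 or 3 (adjusted p up to 0.063). The second Cdo1 probe set gave -0.50 (adjusted p = 0.35), with overlapping groups.

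Of 43 genes of amino acid breakdown and the urea cycle, 2 were higher (1 without 4HPR array 1 or Targretin array 1 or 3) and 3 lower, and 38 did not pass. Kynu, which cleaves kynurenine, had 13465, 16008 and 14191 with Targretin, against 5096, 6820, 5263 and 5047 with 4HPR (1.39 ± 0.16, adjusted p = 1.2e-05). Tdo2, which opens the same pathway from tryptophan, had 7372, 5729 and 8809 with Targretin, against 13152, 14832, 15302 and 12086 with 4HPR (-0.93 ± 0.14, adjusted p = 3.7e-04), and both groups lay below the diet mean of 25198 ± 773. Gnmt, a methyltransferase that consumes S-adenosylmethionine, averaged 8523 ± 1459 with Targretin and 19904 ± 2094 with 4HPR, and 3 of 3 probe sets passed (-1.23 ± 0.16 on the brightest, adjusted p = 9.3e-05).

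Transcripts of secreted plasma proteins were compared by list. Of 25 genes of coagulation and complement, 6 were lower, 0 higher and 19 did not pass, with a median of -0.33. The chains of C4b-binding protein, an inhibitor of complement, were both among them. C4bpb had 5716, 5022 and 4860 with Targretin, against 12973, 11072, 11472 and 12575 with 4HPR (-1.20 ± 0.12, adjusted p = 5.5e-06). C4bpa had 10448, 10238 and 11852 with Targretin, against 25357, 19170, 22212 and 26905 with 4HPR (-1.10 ± 0.18, adjusted p = 8.8e-04). Diet livers were near 4HPR for C4bpb (11389 ± 1464) and near Targretin for C4bpa (13408 ± 3574). The proteases that start the classical complement pathway were lower as well, C1r by -1.0 ± 0.16 (adjusted p = 7.4e-04) and C1s by -0.77 ± 0.16 (adjusted p = 0.0059), as was their inhibitor Serping1, by -0.78 ± 0.15 (adjusted p = 0.0027).

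Of 21 acute phase proteins, 4 were lower (8 without 4HPR array 4) and 0 higher, with a median of -0.24. Orm1, orosomucoid, had 26794, 24326 and 28935 with Targretin, against 59360, 45011, 45293 and 44320 with 4HPR (-0.85 ± 0.15, adjusted p = 0.0013), and Cp, the copper carrier ceruloplasmin, averaged 25268 ± 3028 with Targretin and 41879 ± 4615 with 4HPR (-0.73 ± 0.13, adjusted p = 0.0021). In diet livers Orm1 averaged 25992 ± 4309 and Cp 25896 ± 1794, close to the Targretin means. For Cp, 1 of 3 probe sets passed. The bright lists of ribosomal proteins (40 genes, 0 calls in limma, 11 with an unadjusted p under 0.05, median -0.20) and proteasome subunits (27 genes, 1 lower, 0 without Targretin array 2 or 3, median -0.24) also lay below 0, while the 54 genes of oxidative phosphorylation had 0 calls, 4 with an unadjusted p under 0.05 and a median of -0.056. With quantile normalization the medians of the complement and acute phase lists were -0.24 and -0.033, so the shift of the acute phase list depends on the scaling, while its count of lower genes was then 3.

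**Figure D4:**
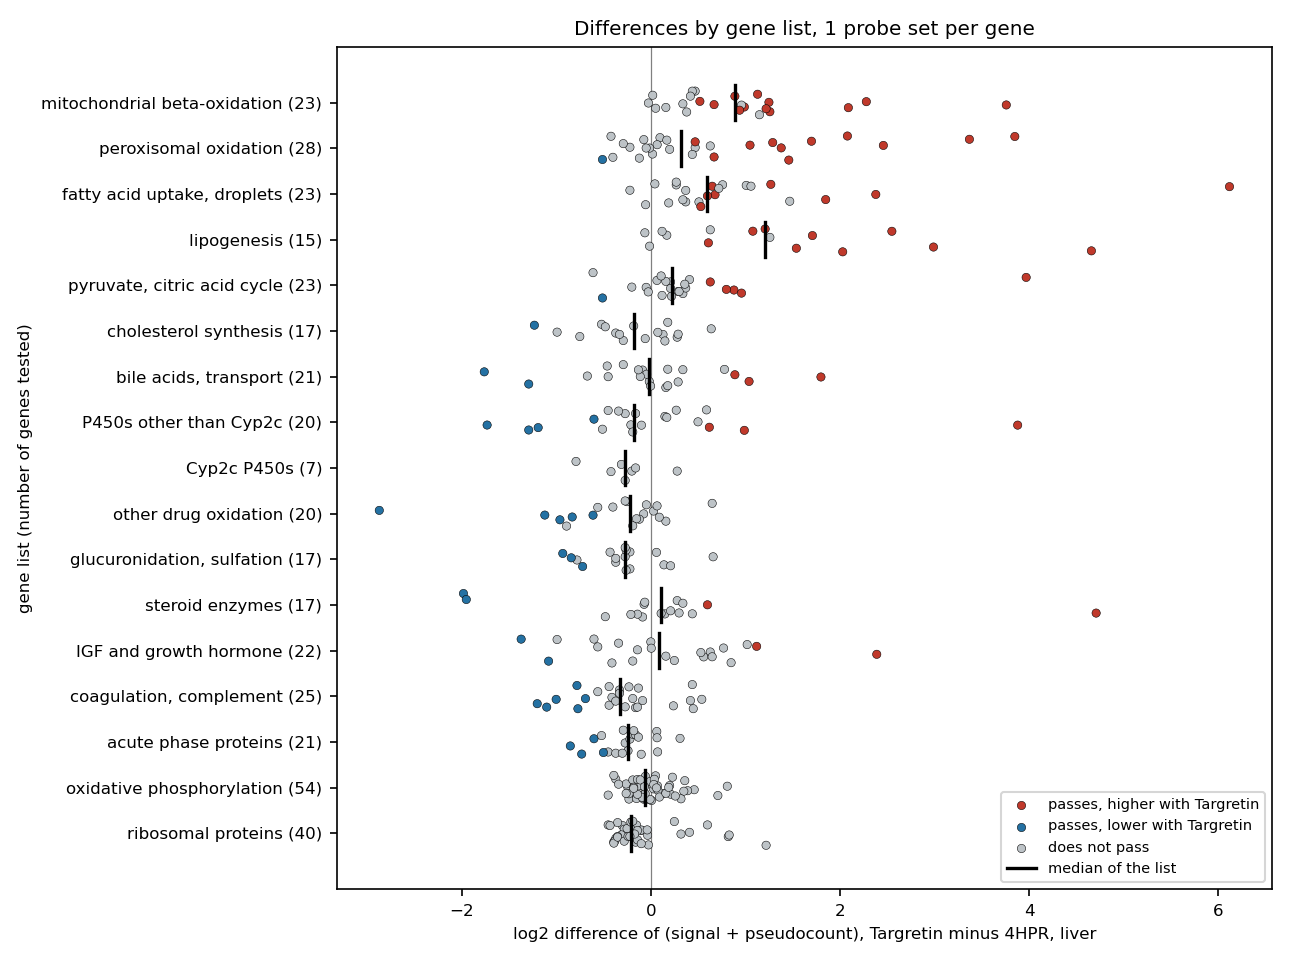
Log2 differences, Targretin minus 4HPR, of the tested genes of 17 lists, 1 point per gene and 1 probe set each; red and blue points passed as higher and lower, grey points did not pass, and the black bar is the median. The lipid lists extend to the right, with medians of 0.89, 0.32, 0.60 and 1.21 from the top, while the complement list has its 6 passing genes at the left.

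The remaining lists held the following calls. Of 29 immediate early and stress transcription factors 4 were lower, beside a share of 3.15% lower over all genes. That count was 1 without Targretin array 1 and 2 without 4HPR array 2 or 3 or Targretin array 2 or 3. Of 27 heat shock and chaperone genes 1 was lower (2 without Targretin array 2), of 16 iron and metal genes 1 was higher and 2 were lower (1 without 4HPR array 2 or 3 or Targretin array 1 or 2), and of 18 genes of antigen presentation 0 passed in the limma fit, with 2 at an unadjusted p under 0.05.

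Several named genes stand outside these pathways. Ccnd1 (cyclin D1), which takes cells into the cell cycle, had 6256, 6901 and 5567 with Targretin, against 1203, 1030, 1059 and 1093 with 4HPR, and 4 of 5 probe sets passed (2.47 ± 0.22 on the brightest, adjusted p = 1.7e-06). It was the 1 of 17 cell cycle genes that passed (2 without 4HPR array 1). Hdc, which makes histamine, had 356, 935 and 825 with Targretin, against 29.4, 36.5, 37.4 and 41.6 with 4HPR (3.22 ± 0.47, adjusted p = 2.2e-04). Kctd13 had 62907, 76676 and 7855 with Targretin, against 1288, 1470, 2884 and 3712 with 4HPR (3.96 ± 0.71, adjusted p = 0.0016), but 1 of its 3 probe sets passed and the others gave 0.14 and -0.61.

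On the lower side, Acsm2, a medium-chain acyl-CoA synthetase, had 330, 510 and 437 with Targretin, against 3586, 2360, 3597 and 5693 with 4HPR and 1528 ± 303 in diet livers (-3.0 ± 0.24, adjusted p = 6.4e-07). As with Fmo1, the agents lay on opposite sides of the diet level. Slc41a2, a magnesium transporter, had 2279, 1787 and 2138 with Targretin, against 6692, 6859, 6678 and 5521 with 4HPR (-1.62 ± 0.17, adjusted p = 5.6e-06), and both were below the diet mean of 9267 ± 1064. Slc28a2, a purine nucleoside importer, averaged 2134 ± 158 with Targretin and 7952 ± 2803 with 4HPR (-1.81 ± 0.24, adjusted p = 9.2e-05). Dbp, a clock-controlled transcription factor, had 948, 485 and 1094 with Targretin, against 4290, 3387, 3485 and 5538 with 4HPR (-2.30 ± 0.31, adjusted p = 1.2e-04). It was the 1 of 9 clock genes that passed, while 5 of the 9 had an unadjusted p under 0.05. The median of the clock list was -0.44 (-0.59 with quantile normalization). Id2, a repressor of differentiation factors, averaged 2045 ± 121 with Targretin, 4078 ± 1337 with 4HPR and 7316 ± 673 with diet (-0.94 ± 0.19, adjusted p = 0.0036).

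Markers of other cell types were read beside these results. Of 14 hepatocyte markers 1 passed (Tdo2, above), and the list's median was -0.10 (0.055 with quantile normalization). In the 10 lists of Kupffer cell, endothelial, cholangiocyte, B cell, neutrophil, erythroid, adipocyte, pancreas, muscle and lung markers, 0 of 52 genes tested passed in the limma fit and 13 had an unadjusted p under 0.05. Sparc, a matrix protein, was the 1 of 14 stellate cell markers that passed, with 24747, 23748 and 27050 with Targretin, against 9982, 16165, 15373 and 7098 with 4HPR (1.12 ± 0.28, adjusted p = 0.021). Its call was lost without 4HPR array 1 or any of the 3 Targretin arrays (adjusted p up to 0.069), and its other probe sets gave -0.13 and 0.34. The summed signal of the stellate list was 48590 to 53685 with Targretin and 30738 to 44945 with 4HPR, and without Sparc it was 23843 to 26634 with Targretin and 23640 to 31913 with 4HPR, where the groups overlapped. The list's median was 0.19 (0.021 with quantile normalization). The T and NK cell list, with 5 of 11 genes above the filter on low values, summed to 3703 to 4244 with Targretin and 2122 to 2897 with 4HPR, and Cd4 (0.86 ± 0.23, adjusted p = 0.030) and Lck (0.82 ± 0.17, adjusted p = 0.0042) passed. The call for Cd4 was lost without 4HPR array 3 or 4 or Targretin array 2 or 3 (adjusted p up to 0.12). The part of these cells in the other results was not tested.

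The position of untreated liver was described gene by gene, with no test, since the diet arrays are the same for every gene. Of the 142 genes higher with Targretin, the diet mean was nearer to the 4HPR mean in 110 (77.5%) and nearer to the Targretin mean in 32. Of the 112 lower genes it was nearer to 4HPR in 85 (75.9%) and nearer to Targretin in 27. Over all 3559 genes the share nearer to 4HPR was 56.0%. Genes of the smaller class, with diet near Targretin and 4HPR apart, included Abcb4, Cyp7a1, Cyp3a9, C4bpa, Csad, Orm1 and Cp, whose values are given above.

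Lung (3 Targretin and 4 4HPR arrays) and mammary gland (3 Targretin and 3 4HPR arrays) were then set beside liver. A moderated F test of limma over 43 arrays asked whether the difference between the agents varied from organ to organ. This test responds to a deviation of any organ, so a call need not come from liver. Of 5114 probe sets that passed the filter in every organ, 296 (5.79%) had a Targretin minus 4HPR difference that differed between organs. Levels of hepatocyte transcripts differed between the groups in the other organs. Alb had 39.0 to 41.1 in Targretin lung and 4652 to 27905 in 4HPR lung, and 801 to 4322 in Targretin mammary gland and 12358 to 33933 in 4HPR mammary gland. Fabp1 had 8.0 to 39.4 in Targretin lung and 734 to 4670 in 4HPR lung, and 11.3 to 22.3 in Targretin mammary gland and 2661 to 6768 in 4HPR mammary gland. Diet mammary gland had Alb signals of 16367 to 33138 and Fabp1 signals of 3432 to 5408, so the Targretin mammary arrays were the low ones, while Alb in diet lung was 17.1 and 28.3 on arrays 3 and 4 and 11199 on array 2. Of the 519 probe sets whose liver signal was at least 4 times that of another organ, 117 were among the 296. With all 519 left out, a choice made after the data were seen, 127 of 4595 (2.76%) passed.

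The 8 genes with the smallest p-values among probe sets with 1 gene symbol are given here, at 1 probe set per gene. Down to the last of them the test ranked 13 probe sets, of which 4 have no single symbol, the first 2 among them, and another is a second one of Scd2. All 8 genes passed in each of the 20 fits that left out 1 Targretin or 4HPR array of any organ. Acaa1b differed by 3.85 ± 0.46 in liver, against -0.58 ± 0.46 in lung and -2.54 ± 0.49 in mammary gland (F test adjusted p = 1.1e-07). It is one of the 519 transcripts with high liver signal, and it averaged 168 ± 26.6 in Targretin mammary gland and 1212 ± 460 in 4HPR mammary gland. Scd2, whose liver difference was 4.66 ± 0.41, gave -0.082 ± 0.41 in lung and 0.33 ± 0.44 in mammary gland (adjusted p = 5.2e-07), and its lung level was as high as 14762 ± 7893 with Targretin and 14122 ± 986 with 4HPR. Fmo1 gave -2.87 ± 0.24 in liver, against 0.11 ± 0.24 in lung and -0.82 ± 0.25 in mammary gland (adjusted p = 5.2e-07). Cyp2b2 gave 3.88 ± 0.46 in liver, against 0.082 ± 0.46 in lung and -1.97 ± 0.50 in mammary gland (adjusted p = 6.2e-07), at lung levels of 29844 ± 6488 with Targretin and 27816 ± 2793 with 4HPR.

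Acot1 gave 6.12 ± 0.66 in liver, against 1.74 ± 0.66 in lung and -2.35 ± 0.71 in mammary gland (adjusted p = 6.2e-07). Cpt2 gave 2.28 ± 0.22 in liver, against -0.18 ± 0.22 in lung and 0.37 ± 0.24 in mammary gland (adjusted p = 2.5e-06), and Eci1 gave 2.09 ± 0.23 in liver, against 0.13 ± 0.23 in lung and -0.48 ± 0.25 in mammary gland (adjusted p = 3.2e-06). These mitochondrial enzymes differed between the agents in liver by more than in either other organ. Pacsin2, a membrane-bending protein, gave -1.22 ± 0.28 in liver, against 0.26 ± 0.28 in lung and 1.96 ± 0.29 in mammary gland (adjusted p = 4.9e-06). The part of the hepatocyte transcripts in the lung and mammary gland differences was not tested gene by gene.

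**Figure D5:**
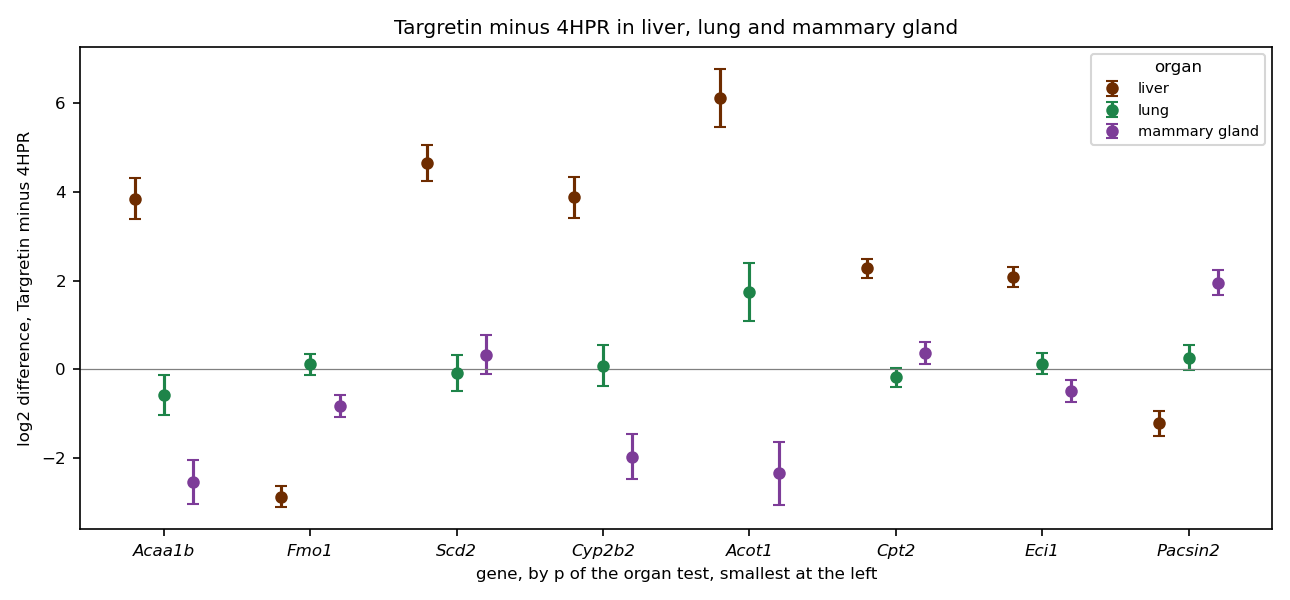
Log2 differences, Targretin minus 4HPR, of 8 genes in liver, lung and mammary gland, as points with SE bars from the fit of 43 arrays; the genes run from the smallest p of the organ test at the left. Acot1, Scd2, Cyp2b2, Acaa1b, Cpt2 and Eci1 have their largest positive difference in liver, at 6.12, 4.66, 3.88, 3.85, 2.28 and 2.09, while Fmo1 and Pacsin2 are lowest there, at -2.87 and -1.22.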

How the data were processed

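RNA of rat liver, lung and mammary gland was hybridised to Affymetrix arrays, 1 per sample. The values are intensity values, MAS5 signal per probe set on a linear scale, as the authors deposited them; MAS5 is named in the submitters' processing notes, with no version, and detection calls were not used here. A 2% trimmed mean of 1501.78 to 1503.29 on every array shows global scaling before deposit, so no further scaling was applied. Of 8799 probe sets, 59 controls were left out. Of all probe sets, 7018 had 1 gene symbol in the platform annotation, 308 several and 1473 none, and 6994 of the first had an Entrez ID in RefSeq's rat table, with 0 symbols changed.

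Before log2 was taken, 38.3 was added, which is the 10th percentile over the table. Testing was limited to probe sets whose signal exceeded the array's 40th percentile on at least 3 of 15 liver arrays. Limma 3.58.1 in R 4.3.3 (lmFit, eBayes with trend) was fitted on the 4 liver groups, and on 43 arrays for the organ test, with Benjamini-Hochberg adjustment and a threshold of 0.05. The number of arrays limits the precision. A gene was represented by its brightest probe set over the liver arrays. Members, lists and tests were chosen with earlier results of these data known. Named genes were the 15 widest differences each way that passed in every fit without 1 array and whose groups did not overlap. Added to these were up to 8 passing and 3 other members of a list, and retinoid genes. The 8 genes of smallest p in the organ test among probe sets with 1 gene symbol were also named. The text gives a part of all these. The alternatives were quantile normalization, no filter, a pseudocount 4 times larger, a replicate block, array weights, a fit of only the 2 groups, no trend, and leaving out each Targretin and 4HPR array, of liver, or of every organ for the organ test. No array correlated above 0.9733 with another liver array, so none was counted as a duplicate. The procedure was tested on simulated data.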

Additional observations from a re-analysis of the deposited data

Results flagged for a closer look

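Within the 4HPR group, 11 of 115 genes examined had 1 array far from the other 3 by Dixon's test, which alone flags about 1 group in 20. The genes share the same arrays and were chosen with these data, so that rate is no yardstick for the count. In 8 of the 11 the far array was 4HPR array 4, the array with the lowest median signal. On the brightest probe set of each gene, that array was the lowest for Acox2 (1109), Fasn (1985), Gpd1 (222), Rxra (522), Gsr (1149) and Slc41a2 (5521). It was the highest for Cpt2 (2760) and Xdh (2811). The second Fasn probe set went the other way, with 9055 on 4HPR array 4, against 6251 to 8815 on the other 4HPR arrays. For Acox2, Fasn, Gpd1 and Cpt2, genes of lipid metabolism, the 3 Targretin arrays lay above all 4HPR arrays either way. 4HPR array 2 was the highest for Kynu (6820), and 4HPR array 1 was the highest for the plasma proteins Orm1 (59360) and Apcs (25823).

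The difference between the agents itself differed between liver, lung and mammary gland for the 8 genes of the organ test, at adjusted p = 1.1e-07 for Acaa1b, 5.2e-07 for Fmo1, 5.2e-07 for Scd2, 6.2e-07 for Cyp2b2, 6.2e-07 for Acot1, 2.5e-06 for Cpt2, 3.2e-06 for Eci1 and 4.9e-06 for Pacsin2.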

How the results depend on the processing

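Of the 108 named genes that passed, between 87 and 108 kept their call in each alternative, with 87 in the fit of only the 2 groups and 87 without Targretin array 2, and none turned its direction. Genes were named partly for passing in every fit without 1 array or for a small adjusted p in their list. The choice itself therefore raised this share, and it does not stand for all calls. Of all 479 passing probe sets, 216 passed in all 7 fits without 1 array. The counts of probe sets higher and lower with Targretin were 162 and 130 in the fit of only the 2 groups, which has fewer arrays. There the higher counts of the peroxisomal, mitochondrial, fatty acid uptake and lipogenesis lists were 8, 10, 5 and 7. Leaving out 1 Targretin or 4HPR array gave 143 to 233 higher and 137 to 260 lower. With quantile normalization 207 were higher and 251 lower, so the side with more calls turned; with array weights the counts were 286 and 299, and without 4HPR array 4 and diet array 2 they were 239 and 277. Arrays of the same number did not deviate together (residual correlations of 0.00306, -0.0869 and 0.0446), so the replicate block, which gave 192 higher and 181 lower, is no paired analysis. The organ count of 296 was 640 with array weights (the cause was not tested), 281 with the replicate block, 127 with the liver-dominant probe sets left out and 225 to 430 without 1 Targretin or 4HPR array of any organ. The genes whose sign turned, Rxra and Cyp26b1, did not pass in any of these fits. Rxra gave -0.070 without 4HPR array 4 and -0.070 without that array and diet array 2, with -0.070 to 0.35 over the fits without 1 array. Cyp26b1 gave 0.004 without 4HPR array 1 and 0.11 without Targretin array 3, with -0.44 to 0.11 over those fits. Dim probe sets near the pseudocount give the least certain differences.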
